A study of Mus musculus with 20 samples.

Results

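Ntrk3, Atp4b, Tgm3, Ttc36, Olig1 and Gabra2 are 6 of the 25219 genes in the expression table of mouse fat. They were chosen by their log2 fold change of Ai-α4KO over Control, as genes that fall furthest in inguinal white adipose tissue (iWAT) or brown adipose tissue (BAT), and each is better known from a tissue other than fat. The mice carried floxed alleles of Igbp1, which encodes α4, a regulatory partner of PP2A-type protein phosphatases. Ai-α4KO mice also carried Adipoq-CreERT2, a tamoxifen-activated recombinase expressed in adipocytes. Control mice carried the floxed alleles without the transgene, and the labels give their genotype as WT. Both genotypes received tamoxifen in 5 injections over 6 days from 2 months of age, and per the study's text RNA was taken 1 week after recombination. The 4 groups were Control iWAT, Ai-α4KO iWAT, Control BAT and Ai-α4KO BAT, with 5 libraries each. The study used male mice, and the labels do not tie an iWAT library to a BAT library of the same animal.

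The 6 genes come from unrelated families. Ntrk3 encodes TrkC, the receptor tyrosine kinase for the neurotrophin made from Ntf3, and is best known from sensory neurons and brain. Atp4b encodes the beta subunit of the gastric proton pump, a P-type ATPase that also needs the alpha subunit Atp4a. Tgm3 encodes a transglutaminase that cross-links proteins in skin and hair. Ttc36 encodes a tetratricopeptide repeat protein that is abundant in liver and kidney and is known to bind the tyrosine-degrading enzyme HPD. Olig1 is a basic helix-loop-helix transcription factor of the oligodendrocyte lineage, and Gabra2 encodes an alpha subunit of the GABA-A receptor, a chloride channel of synapses.

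Libraries held 24023371 to 50384446 expected counts. A floor of 3 counts in a library corresponded to 0.0537 to 0.137 CPM (counts scaled to a common library size, normalised by the trimmed mean of M values, TMM). A fold against a group whose 5 libraries were all at or under that floor is given as a lower bound, and such limits cover counting error only. Igbp1, the deleted gene, was 67.2 ± 7.01 CPM (SD, n = 5) in Control iWAT and 10.8 ± 0.394 CPM in Ai-α4KO iWAT. In BAT it was 93.9 ± 7.29 CPM and 17.0 ± 4.83 CPM, and in neither depot did the genotypes overlap. Adipocyte markers were present in every library, and 12 of 14 were called lower in Ai-α4KO iWAT and 9 of 14 in Ai-α4KO BAT, with none called higher. Of all genes tested, 10.7% were called lower and 11.3% higher in iWAT, and 13.3% and 18.2% in BAT. In bulk tissue, fewer cells of a type and less RNA per cell cannot be told apart. Summed B cell markers reached 513 and 204 CPM in Control iWAT replicates 1 and 4 against at most 14.2 CPM in the other 18 libraries. Summed skeletal muscle markers were 1064 to 10885 CPM in Control BAT and 14923 to 51768 CPM in Ai-α4KO BAT.

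Promoter sequences of 2 of the 6 genes, Tgm3 and Gabra2, were in the RefSeq promoter table of GRCm38.p6. They are shown because they were the members that matched, and their patterns differ: Tgm3 averaged more in Control iWAT than in Control BAT, whereas Gabra2 was near the counting floor in iWAT. Each line gives the 250 bases before the annotated start, read 5′ to 3′ on the gene's strand, and capitals mark the searched motifs found on either strand.
Tgm3, chr2:130012090-130012339, plus strand: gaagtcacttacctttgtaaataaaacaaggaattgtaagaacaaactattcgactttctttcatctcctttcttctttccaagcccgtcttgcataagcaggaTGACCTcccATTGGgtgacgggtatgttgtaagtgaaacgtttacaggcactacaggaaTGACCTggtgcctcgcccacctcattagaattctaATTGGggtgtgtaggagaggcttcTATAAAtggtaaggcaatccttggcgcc
Gabra2, chr5:71095850-71096099, minus strand: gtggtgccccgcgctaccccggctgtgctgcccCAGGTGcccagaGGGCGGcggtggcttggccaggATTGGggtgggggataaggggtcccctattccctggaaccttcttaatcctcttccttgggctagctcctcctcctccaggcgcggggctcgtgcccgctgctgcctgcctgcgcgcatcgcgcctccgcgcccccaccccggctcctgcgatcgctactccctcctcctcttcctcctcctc

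The Tgm3 window was 44.0% G or C and held TATAAA at position -28 from the start, CCAAT on the opposite strand at -137 and -52, and AGGTCA on the opposite strand at -146 and -87. The Gabra2 window was 70.0% G or C and held GGGCGG at -205, CCAAT on the opposite strand at -183 and CANNTG at -217. Among 32851 promoters of 300 bases, which include the 50 bases after the start, 13.6% held TATAAA on either strand, 35.7% GGGCGG, 37.4% CCAAT, 72.3% CANNTG and 16.3% AGGTCA. The letters TGACGTCA (1.79% of promoters) and TTGCGCAA (0.183%) were searched too and were in neither window. TTGCGCAA, TGACGTCA and CANNTG read the same on both strands, and no 2 matches in these windows overlap. A match describes these letters and is not a binding site.

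The genotype contrast is the one on which the genes were picked, so its values are given as a description wherever it chose them. Genes were called at an adjusted p below 0.01 and at least a 2-fold change. Ranked by log2 fold change among the called lower genes, Ntrk3, Atp4b and Tgm3 were at ranks 3, 4 and 6 in iWAT. Olig1, Gabra2, Ntrk3 and Ttc36 were at ranks 2, 3, 4 and 5 in BAT. The genes just inside and just outside the choice were close. In iWAT Tgm3 had a log2 fold change of -5.83 and the next gene, Thrsp, -5.64, and in BAT Ttc36 had -5.24 and the next gene, Slc25a48, -4.97. Of the 6 genes, 4 passed the filter on low counts in iWAT and all 4 were called lower, where 10.7% of the 14604 genes tested were called lower. All 6 passed in BAT and 5 were called lower, where 13.3% of 14344 genes were. The choice fixed most of these calls, so the counts say nothing further about the genes.

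**Figure D1:**
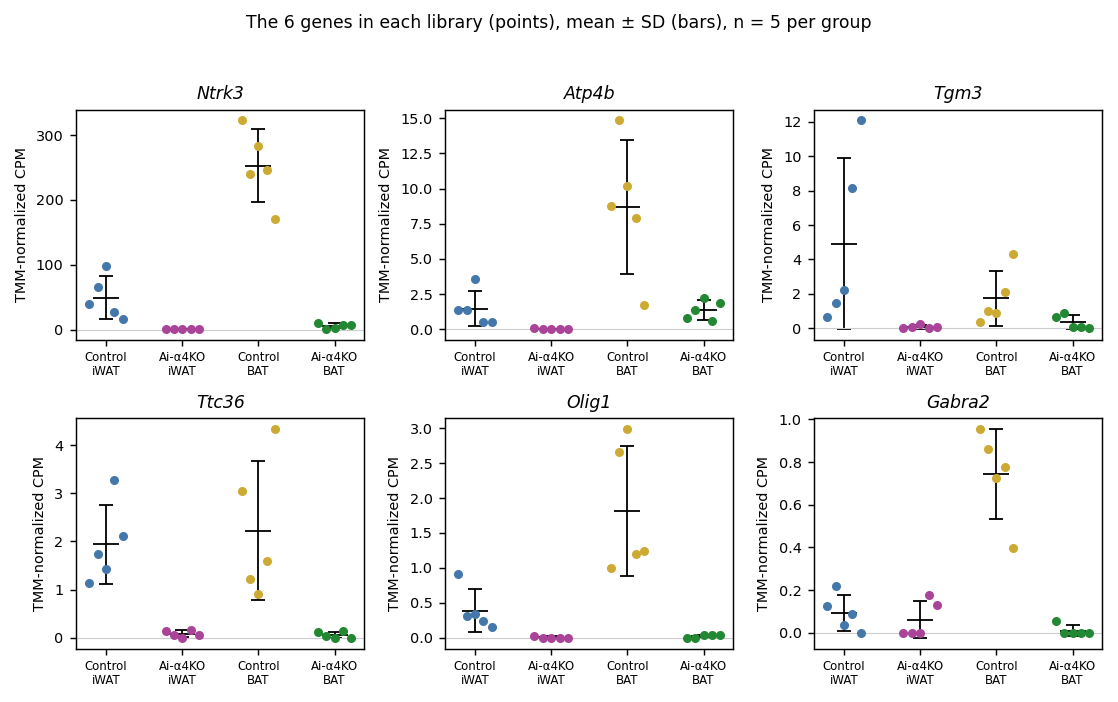
Each panel plots 1 gene in TMM-normalised CPM on a linear axis from below 0, by group, with 1 point per library in replicate order and the mean ± SD of 5 libraries. Ntrk3 Control libraries stand above every Ai-α4KO library of the same depot, while Tgm3 Control iWAT libraries spread from 0.678 to 12.1 CPM and Gabra2 iWAT groups overlap near 0.

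Ntrk3, on chromosome 7 (78192114 to 78577838, minus strand, mm10), was the most abundant of the 6 by length-scaled level in both Control depots. Control iWAT libraries 1 to 5 measured 39.7, 66.2, 98.3, 27.2 and 15.8 CPM, and Ai-α4KO iWAT libraries 0.829, 0.570, 0.735, 0.627 and 0.389 CPM. Control BAT libraries measured 323, 240, 283, 246 and 171 CPM, and Ai-α4KO BAT libraries 10.6, 1.36, 2.58, 7.56 and 7.31 CPM. Within each depot the highest Ai-α4KO value lay under the lowest Control value, a separation that 18.3% of tested genes showed in iWAT and 23% in BAT. The log2 fold change was -6.30 (SE 0.53) in iWAT and -5.46 (SE 0.50) in BAT, with means 98.7% and 97.7% lower. The 2 genotype effects differed by 0.87 (SE 0.68) on the log2 scale. The spread was unlike in the 4 groups, with a coefficient of variation of 67.0% in Control iWAT, 26.6% in Ai-α4KO iWAT, 22.3% in Control BAT and 65.0% in Ai-α4KO BAT. Even in Ai-α4KO iWAT each library kept 15 to 35 Ntrk3 counts, above the floor.

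Ntrk3 was higher in BAT than in iWAT in both genotypes. Control BAT exceeded Control iWAT by 2.35 (SE 0.47) on the log2 scale and was called, in a fit of 15230 genes by edgeR's quasi-likelihood test. In that comparison 7.34% of genes were called higher in BAT and 15.4% lower. Among Ai-α4KO libraries the log2 difference was 3.23 (SE 0.53), also called, where 8.54% of genes were called higher in BAT and 4.09% lower. The order of the group means was therefore Control BAT, Control iWAT, Ai-α4KO BAT and Ai-α4KO iWAT, and no neighbours in that order overlapped. These depot differences use the same libraries as the genotype contrast behind the choice of genes, so for all 6 genes they are descriptions, given without a p.

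The other neurotrophin genes did not follow a single direction. Of 11 other receptors, sorting receptors and ligands, 8 were tested in iWAT. Of these, 3 were called lower and 2 higher, where 10.7% of all genes were called lower and 11.3% higher. Of 9 tested in BAT, 4 were called lower and 2 higher, where 13.3% of all genes were called lower and 18.2% higher. The median log2 fold change of the tested genes was -1.01 in iWAT and 0.14 in BAT, against 0.015 and -0.032 over all genes tested. Ntrk2, the receptor for the Bdnf product, was at 21.5 FPKM (a level scaled by gene length and library depth) in Control iWAT and 16.8 FPKM in Control BAT, above Ntrk3 in iWAT and below it in BAT. It fell from 337 ± 38.1 to 126 ± 29.4 CPM in iWAT and from 304 ± 21.1 to 70.5 ± 28.6 CPM in BAT. Its log2 fold changes were -1.42 (SE 0.17, edgeR adjusted p = 4.19e-05) and -2.15 (SE 0.23, edgeR adjusted p = 6.19e-06).

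Sorcs2, a sorting receptor known to bind neurotrophin receptors and proneurotrophins, had the lowest log2 fold change of the list. It measured 32.7, 42.8, 44.2, 14.3 and 12.2 CPM in Control iWAT and 2.51, 0.843, 0.972, 0.788 and 0.804 CPM in Ai-α4KO iWAT. In BAT the values were 127, 143, 151, 85.5 and 57.1 CPM against 7.05, 7.43, 8.59, 5.70 and 10.2 CPM. Like Ntrk3, its libraries did not overlap between genotypes, its Control level was higher in BAT, and Control iWAT replicates 4 and 5 and Control BAT replicate 5 were the lowest of their groups. The log2 fold change was -4.64 (SE 0.51, edgeR adjusted p = 2.52e-05) in iWAT and -3.88 (SE 0.28, edgeR adjusted p = 3.18e-07) in BAT. Sort1, encoding sortilin, fell by 1.54 and 1.21 on the log2 scale.

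Ntf3, the TrkC ligand, was 4.20 CPM in Control BAT and 1.99 CPM in Ai-α4KO BAT (log2 fold change -1.12, edgeR adjusted p = 0.00356). In iWAT it was 2.52 and 1.54 CPM and was not called (-0.71, edgeR adjusted p = 0.0799). Ngfr rose in iWAT (1.64) and Ntf5 rose in BAT (2.08), whereas Bdnf was called in neither depot.

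**Figure D2:**
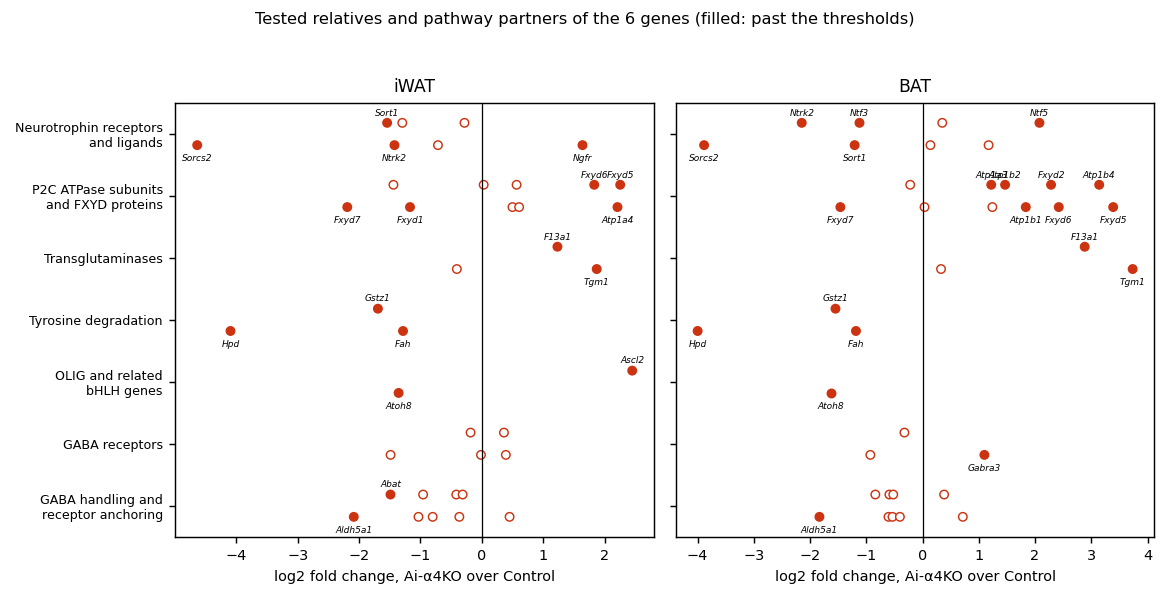
The points are tested genes from the family and pathway lists, without the 6 genes themselves, each at its log2 fold change of Ai-α4KO over Control in iWAT (left) and BAT (right), and filled points passed the thresholds. Sorcs2 (-4.64 and -3.88) and Hpd (-4.10 and -4.00) stand furthest to the left in both depots, and no GABA receptor gene is filled on the left.

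Next to Ntrk3, 3.228 kb beyond its 5′ end and on the same strand, lies E430016F16Rik, on chromosome 7 from 78581066 to 78718220. That stretch lies inside the longer Ntrk3 gene model of GENCODE M21 (78175959 to 78738012), so its reads may belong to long Ntrk3 transcripts, and its value is uncertain as that of a separate gene. It measured 0.683, 0.861, 1.27, 0.988 and 0.916 CPM in Control BAT and 0.108, 0.0802, 0.0847, 0.161 and 0.422 CPM in Ai-α4KO BAT. The log2 fold change was -2.49 (SE 0.45), smaller in size than that of Ntrk3. As 5 Control libraries and 1 Ai-α4KO library reached the level of the count filter, the p is given without it (edgeR adjusted p = 0.000695). In iWAT it failed the count filter, at 0.267 CPM in Control and 0.0093 CPM in Ai-α4KO. The nearest tested gene on the other side, Agbl1, lay 1067 kb away and was not called.

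Atp4b, on chromosome 8 (13386209 to 13396778, minus strand), fell to the floor in iWAT and not in BAT. Control iWAT libraries held 65, 43, 95, 18 and 17 counts (1.38, 1.34, 3.57, 0.521 and 0.498 CPM), and Ai-α4KO iWAT libraries 2, 0, 0, 2 and 0 counts. All 5 Ai-α4KO libraries were under the floor, so the mean was at least 20.04-fold lower. Control BAT libraries measured 8.79, 14.9, 10.2, 7.90 and 1.71 CPM, and Ai-α4KO BAT libraries 0.786, 1.39, 2.20, 0.579 and 1.86 CPM. Control BAT replicate 5 lay within the Ai-α4KO range, and the other 4 Control libraries lay above it.

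The BAT value was not the one that chose Atp4b. It fell by 2.71 on the log2 scale (SE 0.51), with an edgeR adjusted p of 0.000648. An alternative chosen after seeing the data used the mean log2 CPM of the muscle markers as a covariate. The log2 fold change was then -2.70 and the edgeR adjusted p 0.0112, which ends the call. Between the depots, Control BAT exceeded Control iWAT by 2.58 (SE 0.59), although the lowest BAT library (1.71 CPM) was below the highest iWAT library (3.57 CPM). In Ai-α4KO the BAT mean was at least 18.7-fold higher than the iWAT mean, and the libraries did not overlap. Control iWAT and Ai-α4KO BAT had similar means of 1.46 and 1.36 CPM, with overlapping libraries.

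The partner of the encoded protein was almost absent. Atp4a, the catalytic alpha subunit of the gastric pump, averaged 0.0349 CPM in Control iWAT, 0 in Control BAT, and 0.0294 and 0.0297 CPM in Ai-α4KO iWAT and BAT. Stomach markers summed to at most 0.136 CPM in any library, and all 8 were at 0 in Control BAT, the group where Atp4b was highest. The related sodium pump was present and moved in both directions. Of 17 other subunits and FXYD regulators, 12 were tested in iWAT with 3 lower and 4 higher, where 10.7% of all genes were called lower and 11.3% higher. In BAT 13 were tested with 2 lower and 8 higher, where 13.3% and 18.2% of all genes were. The median log2 fold change was 0.53 in iWAT and 1.26 in BAT, against 0.015 and -0.032 over all genes tested.

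Fxyd7 fell in both depots (-2.19 and -1.46), whereas Fxyd5 (2.25 and 3.39) and Fxyd6 (1.83 and 2.42) rose. Among the beta subunits, Atp1b1 and Atp1b2 rose in BAT by 1.83 and 1.47, where summed muscle markers were higher too. Neither was called in iWAT, where the log2 fold change was 0.61 for Atp1b1 (edgeR adjusted p = 0.33) and -1.44 for Atp1b2, from 12.8 to 4.73 CPM (edgeR adjusted p = 0.0804). The part of muscle in those BAT values was not tested.

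Tgm3, on chromosome 2 (130012340 to 130050399, plus strand), had the widest spread between Control libraries. Control iWAT libraries measured 0.678, 1.46, 2.22, 8.13 and 12.1 CPM, with a coefficient of variation of 101%, and Ai-α4KO iWAT libraries 0.0286, 0.0456, 0.263, 0.0179 and 0.0778 CPM. The genotypes did not overlap in iWAT, but 4 of the 5 Ai-α4KO libraries were at or under the floor and replicate 3 held 10 counts. The log2 fold change was -5.83 (SE 0.99) in iWAT. Control BAT libraries measured 0.364, 1.02, 0.861, 2.12 and 4.34 CPM, and Ai-α4KO BAT libraries 0.651, 0.909, 0.0847, 0.0966 and 0.0351 CPM. Ai-α4KO BAT replicates 1 and 2 lay inside the Control range and the other 3 lay below it.

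In BAT, which did not choose it, Tgm3 was not called: its log2 fold change was -2.26 (SE 0.80) with an edgeR adjusted p of 0.0263. DESeq2 gave -2.27 with an adjusted p of 0.00808, which passes. The BAT effect was 3.59 (SE 1.32) less negative than the iWAT effect on the log2 scale, a difference biased by the choice of the gene on iWAT and not tested. Control BAT was 1.49 (SE 0.82) below Control iWAT on the log2 scale and was not called. With the replicate numbers as a block, although the labels do not say that they pair libraries, it was called (-1.31). Leaving out single libraries moved this difference between -2.16 and -0.84.

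Of the relatives of Tgm3, Tgm1 and F13a1 rose in both depots. Of 8 other family members, 7 were in the table and 3 were tested in each depot, with 0 called lower and 2 called higher in both by edgeR and by DESeq2. Of all genes 10.7% were called lower and 11.3% higher in iWAT, and 13.3% and 18.2% in BAT. At an unadjusted p under 0.05 also 0 were lower by edgeR. Tgm1, another keratinocyte transglutaminase, rose by 1.87 (SE 0.42, edgeR adjusted p = 0.00295) in iWAT and 3.73 (SE 0.46) in BAT, where 5 Ai-α4KO libraries and 1 Control library reached the level of the count filter and a fit without it gave an edgeR adjusted p of 1.7e-05. F13a1, the coagulation factor subunit made by macrophages, rose by 1.23 and 2.88, and all 7 macrophage markers in the table rose in both depots. Tgm2, the tissue transglutaminase, was 502 and 380 CPM in iWAT and 280 and 361 CPM in BAT and was not called in either. Tgm7, which was not tested, averaged 0.166 CPM in Control iWAT and 0.0129 CPM in Ai-α4KO iWAT, and 0.183 and 0.0396 CPM in BAT.

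The 12 epithelial and keratinocyte markers summed to 95.2, 17.0, 15.8, 49.2 and 21.5 CPM in Control iWAT and 11.4 to 148 CPM in Ai-α4KO iWAT. In Control iWAT this sum was highest in replicate 1, where Tgm3 was lowest, and next in replicate 4, where Tgm3 was second highest. The part of epithelial cells in the Tgm3 values was not tested. Of the 7 markers tested in iWAT 1 was called lower, where 10.7% of all genes were. It was Trp63, a transcription factor of basal epithelium, which fell from 9.27 to 3.66 CPM (log2 fold change -1.34, edgeR adjusted p = 0.00874). Trp63 rose in BAT (1.70), as did Cdh1 (4.70), for E-cadherin. There 2 of 4 markers tested were called higher, where 18.2% of all genes were. Krt5 and Krt14, which define basal keratinocytes and were not tested, averaged 0.396 and 0.386 CPM in Control iWAT and 0.584 and 0.494 CPM in Ai-α4KO iWAT. The microRNA gene Mir6339 overlaps Tgm3 on the opposite strand and was not tested.

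Ttc36, on chromosome 9 (44799400 to 44802951, minus strand), was alike in the 2 Control depots and lower in both Ai-α4KO depots. Control BAT libraries measured 3.05, 1.21, 0.906, 1.59 and 4.34 CPM, and Ai-α4KO BAT libraries 0.108, 0.0267, 0, 0.129 and 0 CPM, with a log2 fold change of -5.24 (SE 0.70) in the depot that chose it. Control iWAT libraries measured 1.14, 1.74, 1.43, 3.27 and 2.11 CPM, and Ai-α4KO iWAT libraries 0.143, 0.0456, 0, 0.161 and 0.0519 CPM. The genotypes did not overlap in either depot. In iWAT, whose libraries did not choose it (the animals may be shared with BAT), Ttc36 fell by 4.51 on the log2 scale (SE 0.60) and ranked 17 among the called lower genes. It passed the count filter there through Control alone, and a fit without the filter gave -4.50 (SE 0.66, edgeR adjusted p = 0.000192).

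The effects on Ttc36 in the 2 depots differed by -0.73 (SE 0.98) on the log2 scale. Between Control depots the log2 difference was 0.20 (SE 0.54) and was not called. Leaving out single libraries moved it between -0.20 and 0.47. In Ai-α4KO the depots overlapped, with 3 of 5 libraries at or under the floor in each. Ttc36 lies 0.184 kb from Tmem25 and 0.404 kb from Kmt2a, both on its strand, and neither neighbour was called in either depot.

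Of 6 genes of phenylalanine and tyrosine degradation, the pathway of HPD, 3 were tested (Hpd, Gstz1 and Fah) and all 3 fell in both depots, where 10.7% of all genes in iWAT and 13.3% in BAT were called lower. Their median log2 fold change was -1.69 and -1.55, against 0.015 and -0.032 over all genes tested. Hpd, encoding hydroxyphenylpyruvate dioxygenase, measured 0.847, 1.31, 1.69, 3.10 and 2.32 CPM in Control iWAT and 0.143, 0.0912, 0.105, 0.179 and 0 CPM in Ai-α4KO iWAT. In BAT it measured 1.64, 0.626, 2.67, 1.23 and 2.07 CPM against 0.108, 0.0802, 0.0423, 0.0644 and 0.211 CPM. No libraries overlapped between genotypes. The log2 fold change was -4.10 (SE 0.60) in iWAT and -4.00 (SE 0.50) in BAT. Hpd too passed the count filter through Control alone, and without the filter the edgeR adjusted p was 0.000335 in iWAT and 2.33e-05 in BAT. Gstz1, for maleylacetoacetate isomerase, fell from 737 to 229 CPM in iWAT and from 437 to 154 CPM in BAT. Fah, for the last enzyme of the route, fell from 201 to 83.0 CPM in iWAT and from 115 to 52.1 CPM in BAT.

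Tat, an early enzyme of the route, and Hgd averaged at most 0.335 CPM and were not tested. Ttc36 and Hpd are abundant in liver, and liver markers moved in iWAT too. The 8 markers, of which Hpd is a member, summed to 12.4, 22.3, 16.5, 138 and 72.7 CPM in Control iWAT and 4.02 to 12.5 CPM in Ai-α4KO iWAT. Control iWAT replicates 4 and 5 were highest in the liver sum, in Ttc36 and in Hpd. In BAT the same sum was 1.06 to 3.23 CPM in Control and 0.615 to 10.7 CPM in Ai-α4KO, with overlapping groups, while Ttc36 did not overlap. The part of liver RNA in the iWAT values was not tested.

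**Figure D3:**
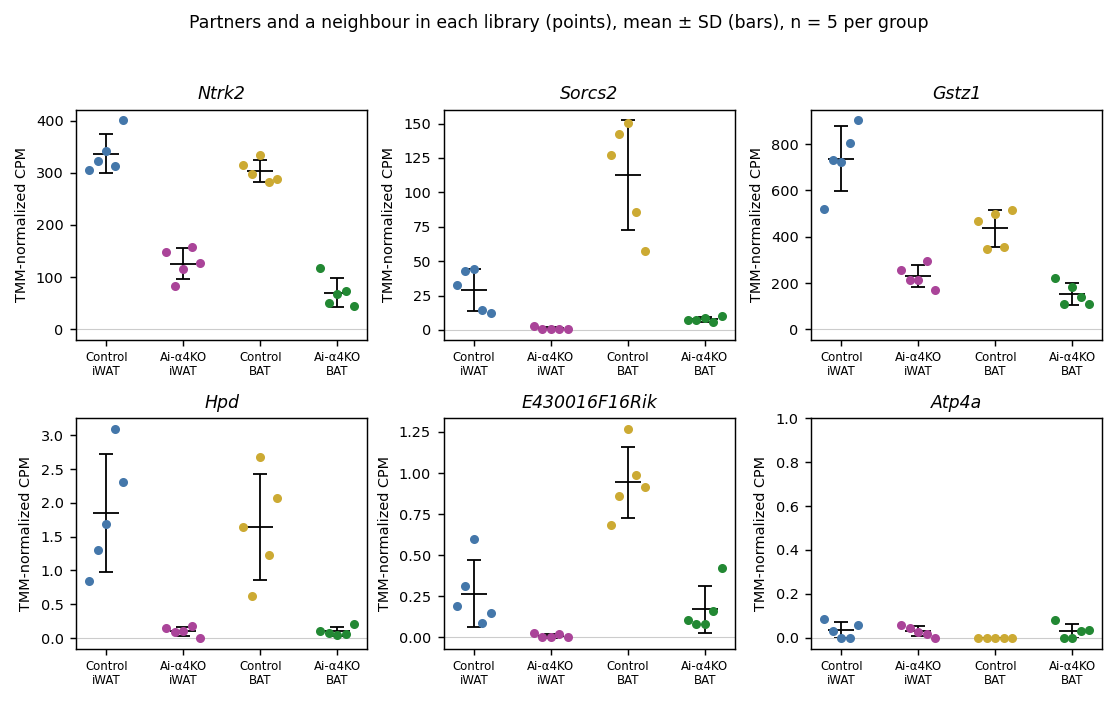
Each panel plots 1 gene in TMM-normalised CPM on a linear axis, by group, with 1 point per library and the mean ± SD of 5 libraries. Hpd, Sorcs2 and Gstz1 fall in both depots, E430016F16Rik is highest in Control BAT at 0.943 CPM on average, and Atp4a stays under 0.1 CPM.

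Olig1, a gene with a single exon on chromosome 16 (91269769 to 91271939, plus strand), was low throughout and lowest in Ai-α4KO. Control BAT libraries held 22, 68, 66, 34 and 31 counts (1.002, 2.66, 2.99, 1.20 and 1.23 CPM), and Ai-α4KO BAT libraries 0, 0, 1, 1 and 1 counts. All Ai-α4KO BAT libraries were under the floor and the mean was at least 18.5-fold lower. Control iWAT libraries held 43, 10, 9, 8 and 5 counts (0.911, 0.311, 0.338, 0.231 and 0.147 CPM), and Ai-α4KO iWAT libraries 1, 0, 0, 0 and 0 counts, a mean at least 5.32-fold lower.

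The iWAT libraries did not choose Olig1, and it failed the count filter there. An exact two-sided permutation test of the mean CPM gave p = 0.0079, the smallest value that 5 against 5 libraries allow, and 0.016 after Benjamini-Hochberg adjustment over the 2 genes so tested. In a fit of all 19018 genes with any iWAT count, edgeR gave an adjusted p of 0.000448. Control BAT exceeded Control iWAT by 2.19 (SE 0.52) on the log2 scale without overlap. The filter of that fit was passed because of Control BAT, with 5 libraries at its level against 3 in Control iWAT and 0 in Ai-α4KO, and the Control BAT values are among those that chose Olig1, so no p is given. A fit without the filter gave 2.21 (SE 0.54). Its highest iWAT library, replicate 1 at 0.911 CPM, lay just under its lowest BAT library at 1.002 CPM. In Ai-α4KO both depots were under the floor and no fold is given.

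The relatives of Olig1 were mostly absent. Of 16 other basic helix-loop-helix genes, 3 passed the count filter in iWAT and 1 in BAT. Olig2, its neighbour in function in oligodendrocytes, averaged 0.0127 CPM in Control iWAT and was at 0 in the other 3 groups, and Olig3 was at 0 in both BAT groups. Atoh8 was called lower in both depots, from 4.17 to 1.63 CPM in iWAT (log2 fold change -1.36, edgeR adjusted p = 0.00434) and from 13.05 to 4.31 CPM in BAT (-1.63, edgeR adjusted p = 0.00126). Ascl2 rose (2.45) in iWAT. The 12 Schwann cell and oligodendrocyte markers summed to 303 to 750 CPM in Control iWAT and 320 to 508 CPM in Ai-α4KO iWAT, with medians of 535 and 394 CPM, and 1 of 9 tested genes was called lower and 1 higher, where 10.7% and 11.3% of all genes were. In BAT they summed to 282 to 418 CPM in Control and 319 to 476 CPM in Ai-α4KO, with 2 of 9 tested genes called lower and 2 higher, where 13.3% and 18.2% of all genes were. Cdh19, a cadherin of Schwann cells, fell in both depots (-1.68 and -1.69), and S100b fell in BAT (-1.003). Mag, a myelin glycoprotein gene, rose in both (1.44 and 3.49), and Pmp22, for a myelin protein, rose in BAT (1.09). The part of glial cells in the Olig1 values was not tested.

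Gabra2, on chromosome 5 (70961057 to 71095849, minus strand), was above the floor in every library of Control BAT only. Control BAT libraries held 21, 22, 16, 22 and 10 counts (0.956, 0.861, 0.725, 0.776 and 0.398 CPM), and Ai-α4KO BAT libraries 2, 0, 0, 0 and 0 counts, a mean at least 7.58-fold lower. In iWAT, Control libraries held 6, 7, 1, 3 and 0 counts and Ai-α4KO libraries 0, 0, 0, 10 and 5 counts. The iWAT groups overlapped, with means of 0.094 and 0.062 CPM, and an exact two-sided permutation test gave p = 0.62. A difference in iWAT was not detectable at this depth. Without the count filter, edgeR gave an adjusted p of 0.737 there.

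For Gabra2, Control BAT exceeded Control iWAT by 2.91 (SE 0.78) on the log2 scale without overlap. It passed the count filter through Control BAT alone, the group where it was high and whose values chose it, so no p is given. Without the filter the difference was 2.93 (SE 0.88) and was not called. Of 20 other GABA-A and GABA-B receptor genes, 5 passed the count filter in iWAT and 0 were called by edgeR or DESeq2, where 10.7% of all genes were called lower, with 1, Gabrr2, lower at an unadjusted p under 0.05. In BAT 3 passed, 0 were called lower by either tool, where 13.3% of all genes were, and 0 were lower at an unadjusted p under 0.05, and Gabra3 was called higher.

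Gabra3 was higher in Control iWAT than in Control BAT, at 19.2 against 3.52 CPM, and rose in BAT by 1.10 (SE 0.30, edgeR adjusted p = 0.00763). Among genes that make, move, break down or anchor for GABA, 10 of 15 were tested. Aldh5a1, which finishes the breakdown of GABA in mitochondria, fell from 47.9 to 11.3 CPM in iWAT and from 69.5 to 19.98 CPM in BAT. Abat, the GABA transaminase, fell by 1.49 in iWAT. Gad1 and Gad2, which make GABA, averaged at most 0.268 CPM and were not tested. Summed neuron markers were 3.92 to 6.42 CPM in Control BAT and 13.2 to 23.7 CPM in Ai-α4KO BAT. Of 6 tested there, 5 were called higher, where 18.2% of all genes were. Syn1 rose from 0.249 to 6.35 CPM and Uchl1 from 1.10 to 6.58 CPM. Stmn2, at 2.89 and 2.34 CPM, was not called. The part of neurons in the Gabra2 values was not tested.

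**Figure D4:**
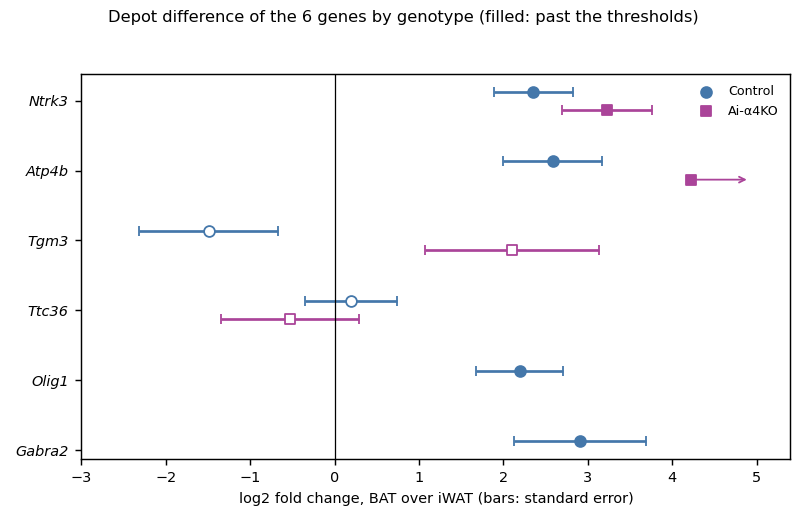
Log2 fold change of BAT over iWAT for each gene in Control (circles) and Ai-α4KO (squares), with standard errors, and filled symbols for genes past the thresholds. Ntrk3 and Atp4b are filled in both genotypes, the Atp4b square with an arrow is a lower bound (at least 18.7-fold), and Olig1 and Gabra2 have no square because a fold could not be given. The filled Olig1 and Gabra2 circles are of genes that passed the count filter because of Control BAT.

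Across the 6 genes, 4 were called higher in Control BAT than in Control iWAT, where 7.34% of all genes were, and 2 of them, Ntrk3 and Atp4b, also in Ai-α4KO, where 8.54% were. The libraries that chose the genes enter these calls, and Gabra2 was not called without the count filter, so the counts are a description. Scaled by gene length, mean levels in Control BAT were 37.9 FPKM for Ntrk3, 5.02 for Atp4b, 2.28 for Ttc36, 0.641 for Olig1, 0.331 for Tgm3 and 0.240 for Gabra2. In Control iWAT the order of FPKM was Ntrk3 (8.39), Ttc36 (2.29), Tgm3 (1.07), Atp4b (0.954), Olig1 (0.162) and Gabra2 (0.0360). Among all genes ranked by median FPKM, Ntrk3 was at percentile 75.2 in Control iWAT and 93.3 in Control BAT, and Gabra2 at 37.8 and 48.9.

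The Control libraries differed from each other in a shared way. Control iWAT replicates 4 and 5 and Control BAT replicate 5 were the lowest libraries of their groups in Ntrk3 and Atp4b and the highest in Tgm3 and Ttc36. As deviations from the group means over 20 libraries, pairs of genes did not all follow this pattern. Tgm3 had a Pearson r of -0.47 with Ntrk3, -0.59 with Atp4b and -0.63 with Olig1. Ttc36 had -0.56 with Atp4b but 0.042 with Ntrk3. Tgm3 with Ttc36 had 0.24, and Ntrk3 with Atp4b had 0.31. These are descriptions of libraries that share depth and tissue makeup. The 10 brown adipocyte markers were lowest in the same Control iWAT libraries, with sums of 657, 947, 1243, 356 and 273 CPM in replicates 1 to 5. Among them Ucp1, the uncoupling protein of thermogenic fat, measured 255, 240, 314, 18.03 and 5.13 CPM. In Control BAT their sums were 13345, 10569, 11039, 8858 and 9500 CPM, so replicate 5 was second lowest after replicate 4. Control iWAT replicate 4 was also high in B cell and muscle markers, and replicate 5 was not high in B cell markers. The part of tissue makeup in this pattern was not tested.

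Ntrk3 and Ttc36 fell further than the mean of the general adipocyte markers, but brown adipocyte markers also fell far in iWAT. Of 9 brown adipocyte markers tested there, 8 were called lower, where 10.7% of all genes were. The median log2 fold change of the 9 was -2.66, against -1.61 for the 14 general markers, and Cidea is in both lists. The log2 fold change was -6.57 for Ucp1, -4.95 for Cidea and -3.75 for Kcnk3, beside -6.30 for Ntrk3. In BAT 4 of 10 brown adipocyte markers were called lower, where 13.3% of all genes were. The median of the 10 was -1.14 and Ucp1 was at -2.39, beside -5.46 for Ntrk3. The part of brown-like adipocytes in the values of the 6 genes was not tested. Relative to the mean log2 CPM of the 14 general adipocyte markers in the same library, computed with a prior of 2 counts that compresses low genes, Ntrk3 was lower by 4.07 in iWAT and 4.18 in BAT, without overlap between genotypes. Ttc36 was lower by 2.04 and 2.74, without overlap. Olig1 and Gabra2 did not overlap on this scale in BAT and overlapped in iWAT, Atp4b overlapped in BAT only, and Tgm3 overlapped in both depots. The share of all genes without overlap on this scale was not computed. In iWAT Gabra2 was 1.42 higher on this scale, with 3 of 5 libraries of each genotype at or under the floor. These values come from the contrast that chose the genes and are descriptions.

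The 3 genes most like each of the 6 over the 20 libraries were found by Pearson correlation, which mostly follows the 4 group means. For Ntrk3 they included Slc25a35 (Pearson r of log2 CPM 0.980), a mitochondrial carrier, and Acad9 (0.977), an acyl-CoA dehydrogenase that assembles respiratory complexes. For Atp4b they were Dlat (0.957), a subunit of pyruvate dehydrogenase, Gpd2 (0.956), the mitochondrial glycerol phosphate dehydrogenase, and Cd59b (0.953). For Tgm3 they were Fbxo36 (0.902), Lzts1 (0.893) and Lrrc27 (0.874), and for Ttc36 Lman2l (0.970), Blcap (0.969) and Rab34 (0.964). For Olig1 they were Dhodh (0.961), a mitochondrial enzyme of pyrimidine synthesis, Hnrnph3 (0.960) and Men1 (0.959), and for Gabra2 Camsap2 (0.922), Inpp5e (0.910) and Wdr20 (0.905). The r of deviations from the group means was lower, from 0.27 for Dhodh to 0.85 for Lzts1 and Blcap.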

How the data were processed

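RNA of 20 mouse fat libraries, 5 per group, was sequenced from poly(A) RNA with a stranded kit. The authors deposited expected counts per gene, not all of them whole (76.6% of nonzero values are), and FPKM. The submitters' processing notes name bcl2fastq 2, STAR 2.5.3a and mm10, and the counting tool is not given in the sources used here. Counts were rounded and tested with edgeR 4.0.16 in R 4.3.3 (filterByExpr, TMM factors, quasi-likelihood test, Benjamini-Hochberg). Genotype was tested within each depot and depot in 1 fit of 20 libraries. Calls needed an adjusted p below 0.01 and at least a 2-fold change. Scripts were tested on simulated data. Libraries of 24023371 to 50384446 counts set the floor of 3 counts per library.

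The members and the gene lists were chosen with earlier results of these data known. No p is given where a gene ranked among the 6 lowest called genes of a depot, nor for depot differences of the members. For members, neighbours and partners described at length that passed the count filter through 1 group, any p given comes from the fit without the filter. The named genes are the 6 members, Igbp1, the 3 genes most correlated with each member, tested neighbours, genes at the edges of the choice, and in each list the extreme called genes, abundant relatives and ligands. Whether libraries of a group are separate animals is not labelled, so p-values measure only the spread between these libraries. Strand use in counting is not stated, so overlapping genes are uncertain. Alternatives were DESeq2 1.42.0, limma 3.58.1 on FPKM, other scalings, filters and thresholds, a replicate block, and leaving out libraries. Some genes of the lists are counted but not reported here by name.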

Additional observations from a re-analysis of the deposited data

Results flagged for a closer look

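In 20 of the 24 groups of 5 libraries (6 genes by 4 groups, less the 4 groups with every library at or under the floor) the gap between an extreme library and the rest was compared with Dixon's 95% limit, which chance passes in about 1 in 20 groups. A single library stood apart in 3 of them. Atp4b in Control iWAT replicate 3 was 3.57 CPM, against 1.38 CPM for the next library. Tgm3 in Ai-α4KO iWAT replicate 3 was 0.263 CPM, from 10 counts. Olig1 in Control iWAT replicate 1, where B cell markers were also highest, was 0.911 CPM, against 0.338 CPM for the next library. The part of B cells in that value was not tested.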

How the results depend on the processing

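No result changed direction while called under any alternative run. With limma on log2(FPKM + 1), which compresses low genes, the genes called fell to 779 lower in iWAT (1559 by edgeR), 807 lower in BAT (1910), 547 higher in Control BAT than iWAT (1118) and 1297 lower (2346), and for Ai-α4KO BAT against iWAT 840 higher (1301) and 351 lower (623). The 6 genes then gave 2 calls in iWAT and 3 in BAT in place of 4 and 5. With a pseudocount of 0.1, 1205 genes were lower in BAT. Requiring 10 counts in every library left 1 of the 6 genes tested in iWAT and 2 in BAT, called lower as 1 and 2, and 292 genes lower in Ai-α4KO BAT against iWAT. DESeq2 called all 6 genes in BAT. Without normalization factors the calls in BAT were 1265 lower and 3251 higher (1910 and 2614 with TMM), in Control BAT against iWAT 2861 lower and 756 higher (2346 and 1118), and the median log2 fold change of all BAT genes moved from -0.032 to 0.23. Under that scaling Sort1, Ntf3, Fxyd7 and Fah lost their BAT calls, while none of the 23 and 25 relatives called in iWAT and BAT changed sign under it, upper-quartile scaling or DESeq2. With the muscle marker score as a covariate, added after seeing the data, 1717 genes were higher in BAT and 4 of the 6 genes were called lower, Atp4b having lost its call. Without Control iWAT replicates 1 and 4, also added after seeing the data, 4 of the 6 were still called in iWAT. Leaving out 1 library at a time kept 4 and 5 of the 6 genes called lower, and the genes lower in Ai-α4KO BAT against iWAT ranged from 278 to 504, the lowest without Ai-α4KO BAT replicate 5. The labels do not say whether replicate numbers pair libraries, and correlations between unlike depots or genotypes cannot decide it. Same-numbered deviations correlated between -0.451 and 0.244. In the 4 pairings, 1, 2, 2 and 4 of 10 libraries correlated best with their own number. With the numbers as a replicate block, 1461 genes were lower and 1584 higher in iWAT, 1834 and 2509 in BAT, and 343 lower in Ai-α4KO BAT against iWAT. The block kept 4 and 5 of the 6 genes called and called Tgm3 lower in Control BAT than in Control iWAT (-1.31). Causes of these changes were not tested. Genes at 10 counts or fewer in every library, as Gabra2 in iWAT, are limited by depth.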
